A study of Rattus norvegicus with 25 samples.

Results

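The comparison described here set the left dorsal dentate gyrus (DG) of rats that showed high anxiety-like behavior after a severe stressor against that of unstressed rats. It comprised 8 RNA libraries, 5 control and 3 stress-high, of the 25 libraries of the study, each from the DG of 1 animal. All animals were adult male wild-type Sprague-Dawley rats, an outbred strain. Stress-high animals had undergone 3 h of immobilization together with predator scent (fox urine) and were those with a composite anxiety-like behavior score of 13 to 15. Control animals were not immobilized and had scores of 0 to 6. Brains were frozen 9 days after the stressor, and punches 0.75 mm wide were taken from sections 200 µm thick, so that a library holds all cell types of the punch. Control libraries were those of animals 2, 14, 17, 28 and 32, of which 14, 17 and 32 carry a high-score and 2 and 28 a low-score name within the control range. Stress-high libraries were those of animals 7, 19 and 20. The control library of animal 35 was left out, since it scored 55.95 on the first principal component of the 12 DG libraries while the others lay between -13.7 and 2.28. According to the paper, the hippocampal control it excluded had low RNA quality, was re-extracted and then stood apart from the other samples. Its text gives no animal number for that sample. The 3 stress-low DG libraries (animals 22, 33 and 34, the same stressor and scores of 0 to 2) were kept in the fit to estimate the spread and are given beside the results. All stress-high animals were numbered 20 or lower and all stress-low animals above 20, and what this numbering stands for was not given. According to the paper, rats were housed in pairs and run by cohort, with cage mates stressed side by side. Which of these animals shared a cage or cohort was not given. Stressed rats were also bled during the stressor and kept in another room for a time afterward. All rats took the behavior tests before brains were frozen.

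The dentate gyrus is the entry gate of the hippocampus. Its granule cells send mossy fibers to CA3 and make several neuropeptides beside glutamate, among them the dynorphins, which are cut from prodynorphin (Pdyn) and act on the kappa opioid receptor. Cocaine- and amphetamine-regulated transcript prepropeptide (Cartpt) is the precursor of the CART peptides, which are known from feeding, reward and stress circuits. Both are known targets of cAMP and calcium signaling through CREB in other cells.

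In these libraries Cartpt was 3.08 times as high in stress-high animals as in controls, and Pdyn was 2.41 times as high in controls as in stress-high animals. These were the genes with the smallest unadjusted p in either direction. Both are also among the 5 genes that the study listed for this comparison from these same libraries. Their direction and the p-values given for them as single genes are therefore no independent evidence. Neither passed the test across all genes, in which 0 of 14080 genes had an adjusted p under 0.05 (0%, edgeR quasi-likelihood test with Benjamini-Hochberg adjustment). At an unadjusted p under 0.05, 151 genes (1.07% of those tested) were higher and 158 (1.12%) were lower in stress-high animals. The smallest adjusted p was 0.960. In TPM (transcript abundance relative to the library total), the 3 stress-high values lay above all 5 control values for 77 genes (0.547%) and below them for 129 genes (0.916%). Of the 56 splits of 5 against 3 animals, 1 separates the groups in each direction, and both shares were under that 1 in 56. The 2.19% of genes at an unadjusted p under 0.05 was likewise below the share of 0.05 that chance gives. A lack of overlap in single genes below is therefore a description only. Differences were small for most genes, with a median log2 fold change of 0.0011 and a median absolute change of 0.0644, and 41 genes combined a change of more than 2-fold with an unadjusted p under 0.05. A negative log2 fold change means lower in stress-high animals throughout.

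Total expected counts, the reads that RSEM assigned to genes, were 13487835 to 19135223 in the 5 controls and 16201792 to 19477932 in the stress-high libraries, and the standard error of a log2 fold change had a median of 0.10. All 8 genes of a granule cell marker list were detected and tested, with a summed level of 916 to 1339 TPM in controls and 999 to 1148 TPM in stress-high animals. Prox1, the transcription factor that marks granule cells, stood at 76.9 TPM in controls and 74.4 TPM in stress-high animals. The 9 choroid plexus gene models summed to at most 0.83 TPM in any of the 8 libraries, and 2 of them were at 0 in all 8. Since the tissue is bulk, fewer cells of a type and less RNA per cell cannot be told apart in any result below. Labels name separate animals, so that the spread below is between animals.

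**Figure D1:**
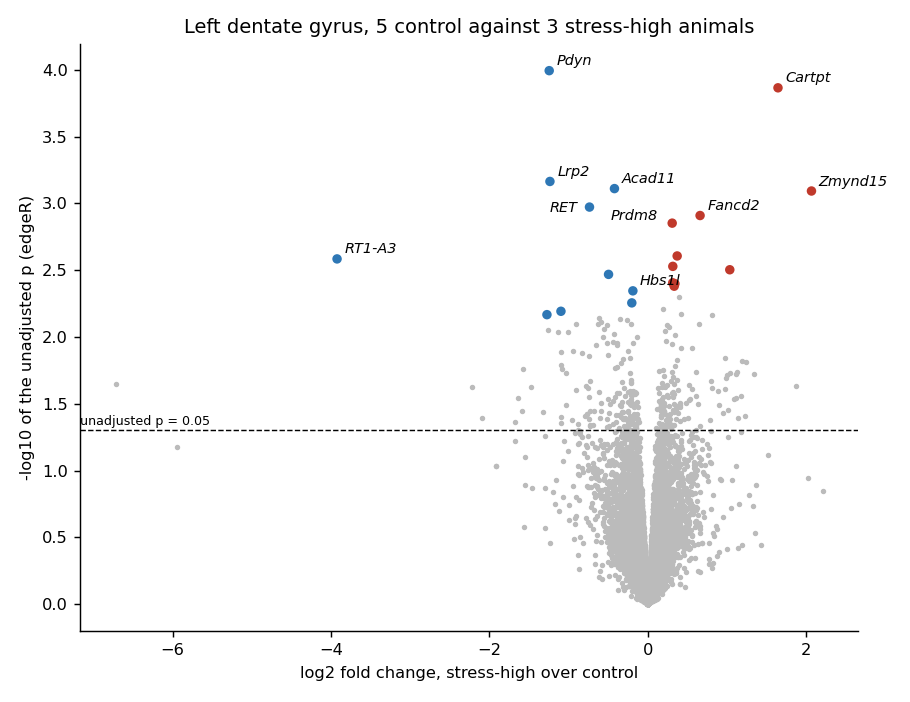
Each point is 1 of the 14080 DG genes tested, with the log2 fold change of stress-high over control animals on the x axis and -log10 of the unadjusted edgeR p on the y axis. Colored points are the 10 higher and 10 lower named genes with the smallest p, and the dashed line is an unadjusted p of 0.05. Pdyn and Cartpt stand highest on either side, at adjusted p = 0.960 each.

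The promoters of both peptide genes are shown because these genes headed the comparison in opposite directions. They were taken from RefSeq on the GRCr8 assembly, as the 250 bases before the annotated start, 5' to 3' on the gene's strand (minus for both). The files themselves were made on Rn5, so these coordinates belong to GRCr8 only. Capitals mark a full cAMP response element (CRE, TGACGTCA, which reads the same on both strands) or a TATA box (TATAAA, searched on the gene's strand).
Cartpt, chr2:32991236-32991485: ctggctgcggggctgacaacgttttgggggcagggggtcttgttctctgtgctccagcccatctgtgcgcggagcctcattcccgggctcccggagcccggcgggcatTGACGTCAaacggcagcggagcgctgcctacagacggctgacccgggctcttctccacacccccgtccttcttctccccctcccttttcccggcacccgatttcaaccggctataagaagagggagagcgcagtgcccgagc
Pdyn, chr3:137366504-137366753: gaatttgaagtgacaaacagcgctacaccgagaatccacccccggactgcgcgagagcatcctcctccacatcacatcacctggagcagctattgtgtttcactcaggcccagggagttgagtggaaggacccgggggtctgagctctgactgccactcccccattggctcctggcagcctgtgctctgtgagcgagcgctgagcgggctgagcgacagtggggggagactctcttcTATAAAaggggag
The Cartpt promoter held the full CRE, with its first base 142 bases before the start, and no exact TATAAA. Near its end the printed Cartpt sequence reads tataag, which differs from TATAAA in the last letter only and was not searched for. The Pdyn promoter held TATAAA 13 bases before the start and no full CRE. Over all 33469 rat promoters of the same table, each 300 bases long, 1.83% held a full CRE on either strand and 8.80% held TATAAA on the gene's strand. Hbs1l, described below, held the shorter TGACGT on either strand, which was in 7.94% of promoters and is part of the full CRE. These are matches of letters in a short window and not measured sites.

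Among the neuropeptide precursors tested, Cartpt (ENSRNOG00000017712) was the only one that was higher at an unadjusted p under 0.05 in edgeR. It was at 4.76, 4.14, 8.37, 5.04 and 2.68 TPM in control animals 2, 14, 17, 28 and 32. In stress-high animals 7, 19 and 20 it was at 14.69, 14.35 and 17.08 TPM. Every stress-high animal lay above every control, and the lowest stress-high value was well above animal 17, the highest control. The means were 4.998 ± 2.09 TPM (SD, n = 5) and 15.4 ± 1.49 TPM (SD, n = 3), with p = 0.0179 in an exact two-sided permutation test over the 56 splits, the smallest p that this design allows. The log2 fold change was 1.65 (SE 0.31, 95% interval 0.97 to 2.32), with an unadjusted p of 0.000136 and an adjusted p of 0.960 in edgeR. DESeq2 called this gene and no other (adjusted p = 0.0135, log2 fold change 1.64). Over the other alternatives the adjusted p of Cartpt was 0.257 or higher, and its log2 fold change stayed between 1.44 and 1.89. The gene was read from few counts, 16 to 45 in the controls and 90 to 122 in the stress-high libraries. Stress-low animals 22, 33 and 34 had 5.28, 1.47 and 2.80 TPM, which overlaps the controls and lies below all stress-high animals.

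Pdyn (ENSRNOG00000026036) had the smallest p of the precursors that were lower. It was at 198.95, 125.35, 118.56, 176.98 and 215.86 TPM in control animals 2, 14, 17, 28 and 32. It was at 91.83, 59.87 and 56.20 TPM in stress-high animals 7, 19 and 20. All 3 stress-high animals were below the lowest control, and the controls themselves spread widely, with animals 14 and 17 below the other 3. The means were 167 ± 43.6 TPM (SD, n = 5) and 69.3 ± 19.6 TPM (SD, n = 3; exact permutation p = 0.0357). The log2 fold change was -1.24 (SE 0.23, 95% interval -1.74 to -0.75), at an unadjusted p of 0.000101 and an adjusted p of 0.960 in edgeR. Counts were high, from 1516 to 4901 per library, so that counting noise is small beside the spread between animals. DESeq2 gave an adjusted p of 0.0537. Against the 3 controls with a high-score name alone the log2 fold change was -1.12, and against the 2 with a low-score name it was -1.41. Stress-low animals 22, 33 and 34 had 111.71, 86.70 and 147.11 TPM, between the other groups and overlapping both. Their log2 difference from the same controls was -0.52 (SE 0.22), and these 2 contrasts share their 5 control libraries.

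**Figure D2:**
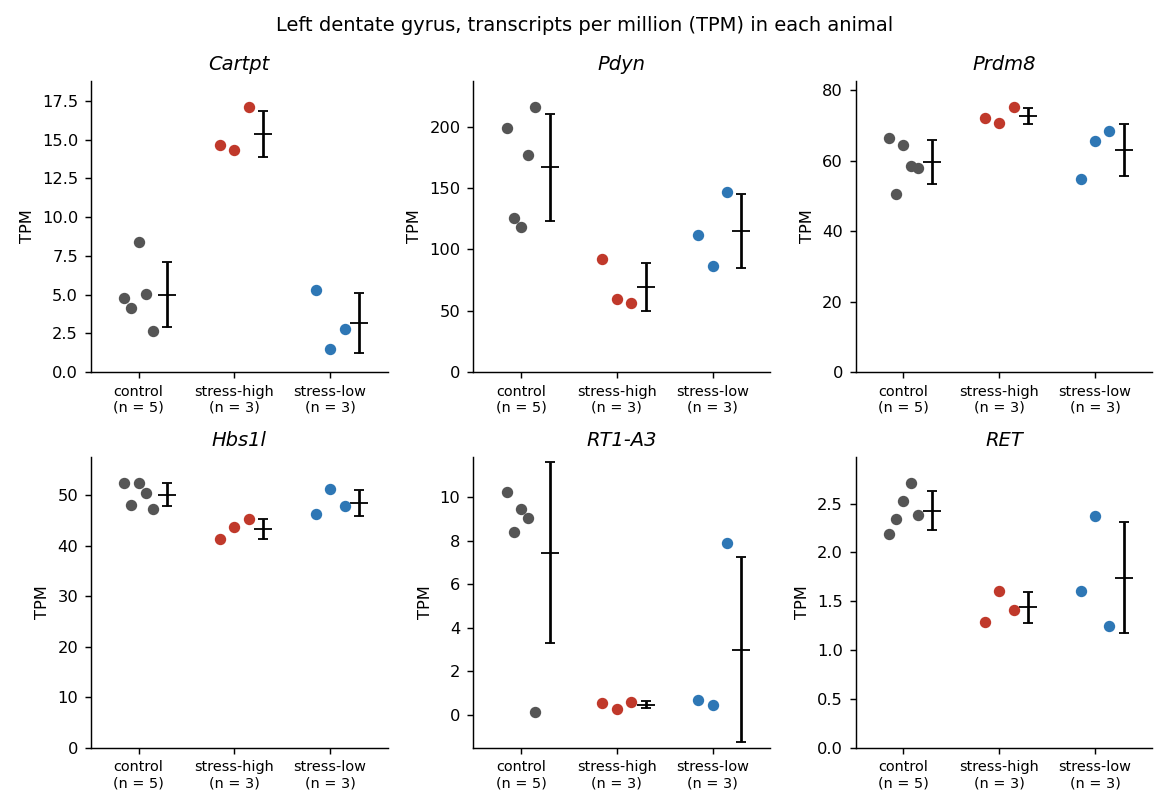
TPM of 6 genes in the left DG, 1 panel per gene and 1 point per animal, with the mean ± SD beside each group (5 control, 3 stress-high and 3 stress-low animals). Stress-high animals lie above all controls for Cartpt and Prdm8 and below all controls for Pdyn, Hbs1l and RET, while for RT1-A3 a control at 0.12 TPM overlaps them.

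Of 35 neuropeptide precursors on the list 22 had enough counts to be tested, and of these 1 was higher and 3 were lower at an unadjusted p under 0.05, beside 1.07% and 1.12% of all genes tested. The median log2 fold change of the list was -0.05, beside 0.0011 over all genes. The lower ones were Pdyn, gastrin-releasing peptide (Grp) and neurokinin B precursor (Tac3). Grp was at 4.43, 5.18, 4.80, 10.48 and 7.44 TPM in controls and at 1.02, 3.86 and 4.0 TPM in stress-high animals, with no overlap (log2 fold change -1.09, SE 0.49). Tac3 was at 53.7 ± 8.72 TPM in the 5 controls and 43.0 ± 7.37 TPM in the 3 stress-high animals, and its groups overlapped. Without animal 7, the lowest in Grp, the log2 fold change of Grp was -0.72, and without animal 19 that of Tac3 was -0.18 instead of -0.30. Both had an adjusted p of 1 in edgeR.

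The 8 opioid genes had a median log2 fold change of -0.03. Pdyn was the only one of them with an unadjusted p under 0.05, beside 2.19% of all genes. Its receptor, the kappa opioid receptor Oprk1, was scarce in the DG, at 0.364 TPM in controls and 0.343 TPM in stress-high animals (change of -0.09 on the log2 scale, 95% interval -0.83 to 0.65), so that a change of less than about this width was not detectable. The enkephalin precursor PENK was at 52.7 and 53.4 TPM in these groups (log2 fold change 0.05, 95% interval -0.25 to 0.34). The µ receptor gene OPRM1 was at 2.29 and 2.62 TPM. None of 10 genes for enzymes and partners that cut, amidate or store peptides had an unadjusted p under 0.05 in edgeR, and their log2 fold changes ran from -0.05 to 0.09.

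The study listed 3 genes for this comparison beside Cartpt and Pdyn. Since that list was drawn from these same libraries, the direction of its genes is no independent evidence. Prdm8 (ENSRNOG00000002004), a PR-domain regulator of transcription that works with Bhlhe22 in neurons, was at 66.36, 50.63, 64.46, 58.34 and 57.85 TPM in controls and at 72.02, 70.62 and 75.05 TPM in stress-high animals. The groups did not overlap, though the lowest stress-high value was close to the highest control. The log2 fold change was 0.31 (SE 0.08, unadjusted p = 0.00141, adjusted p = 1 in edgeR). Stress-low animals had 54.69, 65.67 and 68.48 TPM. Bhlhe22 was at 133 ± 5.96 TPM (SD, n = 5) and 142 ± 7.80 TPM (SD, n = 3), with overlap (0.11, SE 0.06). Of 11 tested members of the PRDM list, which includes Bhlhe22, Prdm8 was the 1 with an unadjusted p under 0.05. The share over all genes was 2.19%, and the median of the list was 0.04.

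Hbs1l (ENSRNOG00000014531), a translational GTPase that acts with Pelota on stalled ribosomes, was at 52.44, 48.15, 52.42, 50.51 and 47.42 TPM in controls. It was at 41.37, 43.67 and 45.32 TPM in stress-high animals. The groups did not overlap, and the change was small, with a log2 fold change of -0.19 (SE 0.06, unadjusted p = 0.00451, adjusted p = 1 in edgeR). The spread within each group was small as well, 2.34 TPM (SD) in controls and 1.98 TPM in stress-high animals. Stress-low animals had 46.32, 51.30 and 47.97 TPM. None of the other 12 genes of a list for ribosome rescue and termination, Pelo among them, had an unadjusted p under 0.05. Over all genes this share was 2.19%.

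RT1-A3 (ENSRNOG00000047706), a class I antigen-presenting gene of the rat major histocompatibility complex, did not follow the groups. It was at 10.23, 8.38, 9.47, 9.04 and 0.12 TPM in control animals 2, 14, 17, 28 and 32 and at 0.55, 0.28 and 0.61 TPM in stress-high animals. Control animal 32 was thus below all stress-high animals, and the exact permutation p was 0.125. In stress-low animals it was at 0.67, 0.45 and 7.89 TPM, so that each of the 11 libraries was either below 1 TPM or above 7 TPM. The log2 fold change was -3.92 (SE 1.07, unadjusted p = 0.00260) and -4.24 without animal 32. In the basolateral amygdala (BLA) of the same animals, in libraries normalized separately, the gene was at 6.03 TPM in animal 32, 10.16, 11.88 and 12.34 TPM in controls 14, 17 and 28, and 5.70, 7.48 and 6.68 TPM in stress-high animals 7, 19 and 20. BLA stress-low animals 22 and 34 had 6.62 and 11.26 TPM. The animals that were low in the DG were thus the lower ones in the BLA as well, among the 9 animals in both sets. Class I genes have near-identical copies between which RSEM divides reads, and the level of RT1-A3 is therefore uncertain. The antigen presentation list had 33 tested gene models, from 52 in the files. Of these, 0 were higher and 1, RT1-A3, was lower at an unadjusted p under 0.05, beside 1.07% and 1.12% of all genes. B2m, the shared light chain of class I molecules, was at 134 TPM in controls and 141 TPM in stress-high animals.

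Beside these, the higher genes with the smallest p were Zmynd15, Fancd2, Heyl, Lrp12, RGD1562550, Zfp280b, Slc12a4 and Stx3. Their unadjusted p lay between 0.000807 and 0.00417 in edgeR, and the adjusted p was 1 for each. Fancd2, a DNA repair gene of the Fanconi anemia pathway, was at 0.81, 0.90, 1.0, 0.98 and 0.75 TPM in controls and 1.38, 1.29 and 1.49 TPM in stress-high animals, without overlap (log2 fold change 0.66, SE 0.16). Zmynd15, a zinc finger protein known from germ cells, was scarce, at 0.07 to 0.39 TPM in controls and 0.50 to 1.08 TPM in stress-high animals (2.07, SE 0.48). Stx3, a syntaxin of membrane fusion, was at 6.86, 6.85, 9.00, 8.23 and 8.50 TPM in controls and 10.57, 9.22 and 9.61 TPM in stress-high animals. Its stress-low values, 9.74, 10.32 and 9.86 TPM, were also above every control. The potassium-chloride cotransporter gene Slc12a4 was at 4.79 to 6.63 TPM in controls and 6.63 to 7.01 TPM in stress-high animals, so that the ranges met at 6.63 TPM. For Heyl, a transcriptional repressor downstream of Notch, and Lrp12, a receptor of the LDL receptor family, the log2 fold changes were 0.37 and 0.32, and the groups overlapped. Lrp12 depended on animal 7, without which its log2 fold change was 0.20.

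The lower genes with the smallest p, after Pdyn, RT1-A3 and Hbs1l, were Lrp2, Acad11, RET, Cyp4f4, Pex26, RGD1565183 and Il17rb, with unadjusted p between 0.000685 and 0.00681 in edgeR and an adjusted p of 1. RET, the receptor tyrosine kinase for ligands of the GDNF family, was at 2.19, 2.34, 2.53, 2.71 and 2.38 TPM in controls and 1.29, 1.61 and 1.41 TPM in stress-high animals. The groups were well apart (log2 fold change -0.74, SE 0.18). Stress-low animals 22 and 34, at 1.61 and 1.25 TPM, were at or below the stress-high range, and animal 33, at 2.37 TPM, was among the controls. Lrp2, the endocytic receptor megalin, was at 0.96, 0.73, 0.67, 0.84 and 1.21 TPM in controls and 0.32, 0.19 and 0.60 TPM in stress-high animals. These levels were low and did not overlap (-1.23, SE 0.28), and the log2 fold change was -1.75 without animal 20. Acad11, an acyl-CoA dehydrogenase of fatty acid oxidation, was at 8.31, 7.36, 10.18, 8.31 and 9.11 TPM in controls and 6.89, 6.36 and 5.80 TPM in stress-high animals (-0.42, SE 0.10). Pex26, which anchors the import machinery of peroxisomes, had a log2 fold change of -0.20, and the groups overlapped. Il17rb, an interleukin 17 receptor subunit, was at 0.34 to 0.53 TPM in controls and 0.16 to 0.20 TPM in stress-high animals. The change of RGD1565183 is uncertain, since its log2 fold change of -1.10 became -0.13 when the 2 gene models of this name were summed, and -1.82 without animal 20.

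Lists related to the stress response and to neuronal activity had no gene past the adjusted threshold. Of 21 glucocorticoid receptor and target gene models, 1 was higher and 1 was lower at an unadjusted p under 0.05, beside 1.07% and 1.12% of all genes, with a median log2 fold change of 0.06. Fkbp5, a co-chaperone of the glucocorticoid receptor, was at 48.10, 39.78, 44.96, 47.34 and 35.34 TPM in controls and at 61.09, 46.82 and 44.20 TPM in stress-high animals. The groups overlapped, and the log2 fold change of 0.26 (SE 0.11) was 0.08 without animal 7, whose value was the highest. Ddit4, an inhibitor of mTOR complex 1 that glucocorticoids induce, had a log2 fold change of -0.20 (SE 0.08). The receptors themselves were at 30.0 and 27.8 TPM (Nr3c1, the glucocorticoid receptor, log2 fold change -0.09, 95% interval -0.26 to 0.09) and at 73.9 and 70.0 TPM (Nr3c2, the mineralocorticoid receptor, -0.06, 95% interval -0.21 to 0.10) in control and stress-high animals. Another gene model named NR3C1 had -0.23 (95% interval -0.48 to 0.03).

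Of 31 immediate early genes tested, from 32 on the list, 2 were higher and 1 was lower at an unadjusted p under 0.05, beside 1.07% and 1.12% of all genes, and the median was -0.06. Fosl2, a Fos-family transcription factor, was at 11.45, 13.50, 15.98, 17.47 and 18.74 TPM in controls and at 19.68, 21.24 and 19.94 TPM in stress-high animals, without overlap (0.41, SE 0.17). Nptx2, a secreted pentraxin that gathers AMPA receptors, had a log2 fold change of 0.28 (SE 0.12) and Gadd45b, a stress sensor linked to DNA demethylation, of -0.31 (SE 0.14), both with overlap. That of Nptx2 was 0.17 without animal 19 and 0.44 without animal 20. Fos itself was at 6.25 TPM in controls and 4.95 TPM in stress-high animals (-0.32, 95% interval -0.93 to 0.30), with a log2 fold change of -0.14 without control animal 2 and -0.50 without control animal 32. Bdnf, a neurotrophin made by granule cells, was at 30.8 TPM in controls and 31.6 TPM in stress-high animals. Of 19 interferon response genes 1, Irf9, was higher at an unadjusted p under 0.05, beside 1.07% of all genes. Its log2 fold change was 0.33 (SE 0.14), and the median of the list was 0.11.

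None of 24 glutamate receptor genes, 12 GABA-A receptor subunit genes, 15 genes of the CREB and DREAM list (transcriptional partners known to act on peptide genes) and 3 genes of the corticotropin-releasing hormone system had an unadjusted p under 0.05 in edgeR. The medians of these lists were 0.03, 0.04, -0.02 and -0.21, the last over Crh, Crhr1 and Crhbp, the tested ones of 7 identifiers. Among 102 ribosomal protein genes, the tested part of 133 identifiers, 30 had a positive and 72 a negative log2 fold change. Rps13 was the 1 that was lower at an unadjusted p under 0.05, beside 1.12% of all genes. Among 78 respiratory chain genes, of 84 identifiers, 18 were positive and 60 negative, and 0 passed. The medians were -0.03 in both lists, beside 0.0011 over all genes. Over all 14080 genes tested, 7114 had a positive log2 fold change, and the 5th to 95th percentile ran from -0.26 to 0.25. Whether members of these lists moved together was not tested.

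**Figure D3:**
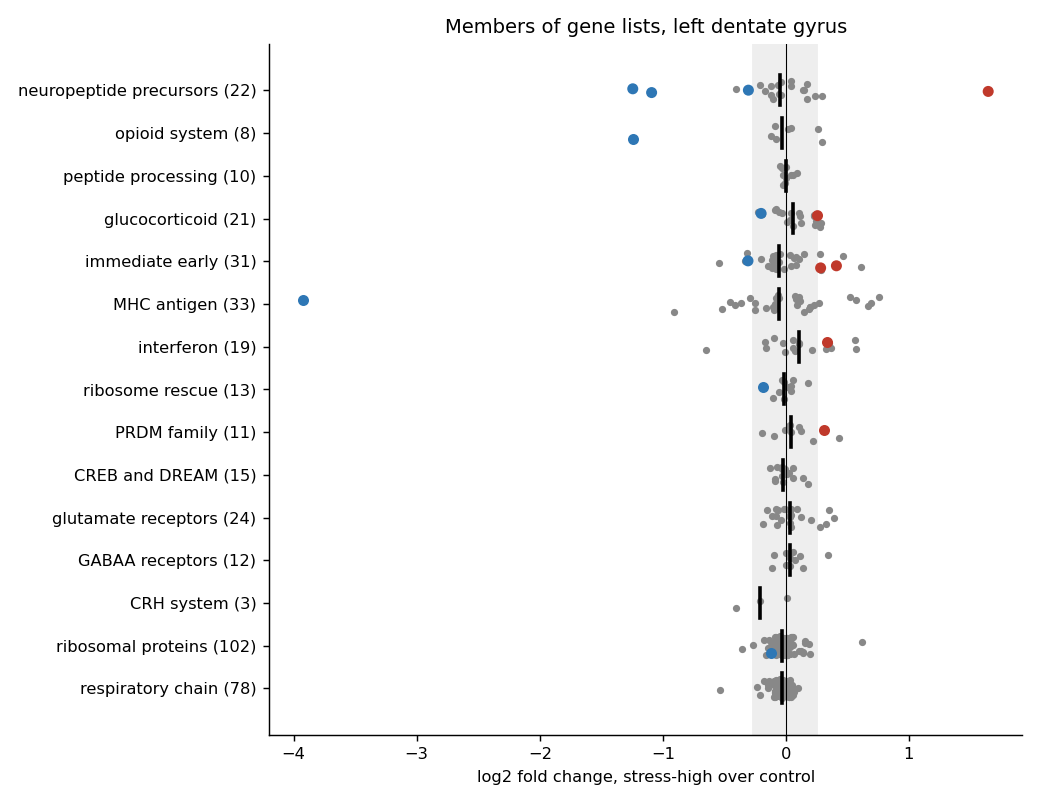
Log2 fold changes of stress-high over control animals for the tested members of each list shown (number tested in parentheses), with 1 point per gene model and the list's median as a black bar. Colored points have an unadjusted edgeR p under 0.05, the grey band spans the 5th to 95th percentile of all 14080 genes, and Cartpt, Pdyn and RT1-A3 lie farthest from it.

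Markers of the cell types that a DG punch can hold were set side by side in the groups. Of 132 tested members of 17 marker lists, 2 were higher (Ugt8 and Pcna) and 1 was lower (Gfap) at an unadjusted p under 0.05, beside 2.19% of all genes in either direction, and 14 lists had no such member. The log2 fold change of Ugt8, an enzyme of myelin lipid synthesis, was 0.21, and 0.12 without animal 7. None of the 8 granule cell, 7 mossy cell, 12 GABA interneuron, 13 microglia and 9 endothelial genes were among them. Gfap, the intermediate filament of astrocytes, was at 524.04, 413.41, 646.77, 371.69 and 440.42 TPM in controls and at 389.86, 380.05 and 371.62 TPM in stress-high animals. The groups overlapped, the highest value was that of control animal 17, and without that animal the log2 fold change was -0.19 instead of -0.31. The summed level of 11 astrocyte markers was 2367 to 3284 TPM in controls and 2435 to 2477 TPM in stress-high animals. Of these, 10 had a negative log2 fold change, with a median of -0.05, and 12 of 13 oligodendrocyte genes a positive one, with a median of 0.05. A positive log2 fold change was found in 7114 of all 14080 genes tested, and the signs within a list were not tested.
Of 13 neurogenesis genes 1, Pcna, the clamp of replicating DNA, was higher at an unadjusted p under 0.05 (1.07% of all genes). Its log2 fold change was 0.18 (SE 0.07). In this list 6 genes were positive and 7 negative, with a median of -0.03, and Mki67 and Top2a were at 0.14 and -0.14. The summed level of the list was 157 to 187 TPM in controls and 171 to 175 TPM in stress-high animals. Single libraries stood apart. On the first principal component of the 8 libraries, control animal 2 scored 27.4 and stress-high animal 7 scored -21.5, and the other 6 lay between -5.38 and 5.84. GABA interneuron markers summed to 862 TPM in animal 7, below all controls (1009 to 1169 TPM), and to 1118 and 1086 TPM in animals 19 and 20. The peptide processing genes summed to 3338 TPM in animal 7, also below all controls (3685 to 4153 TPM), and to 4072 and 4026 TPM in the other stress-high animals. Without animal 7 the log2 fold changes of Cartpt and Pdyn were 1.66 and -1.52, and without control animal 2 they were 1.63 and -1.18. Leptomeningeal markers were at 8.32 to 14.02 TPM in 4 controls and 29.07 TPM in control animal 17, which also had the highest Cartpt of the controls, and at 10.35 to 17.48 TPM in stress-high animals. Blood markers were at 627 to 684 TPM in controls and at 652, 842 and 680 TPM in stress-high animals 7, 19 and 20. Without control animal 17 the log2 fold changes of Cartpt and Pdyn were 1.89 and -1.35, and without stress-high animal 19 they were 1.68 and -1.16.

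**Figure D4:**
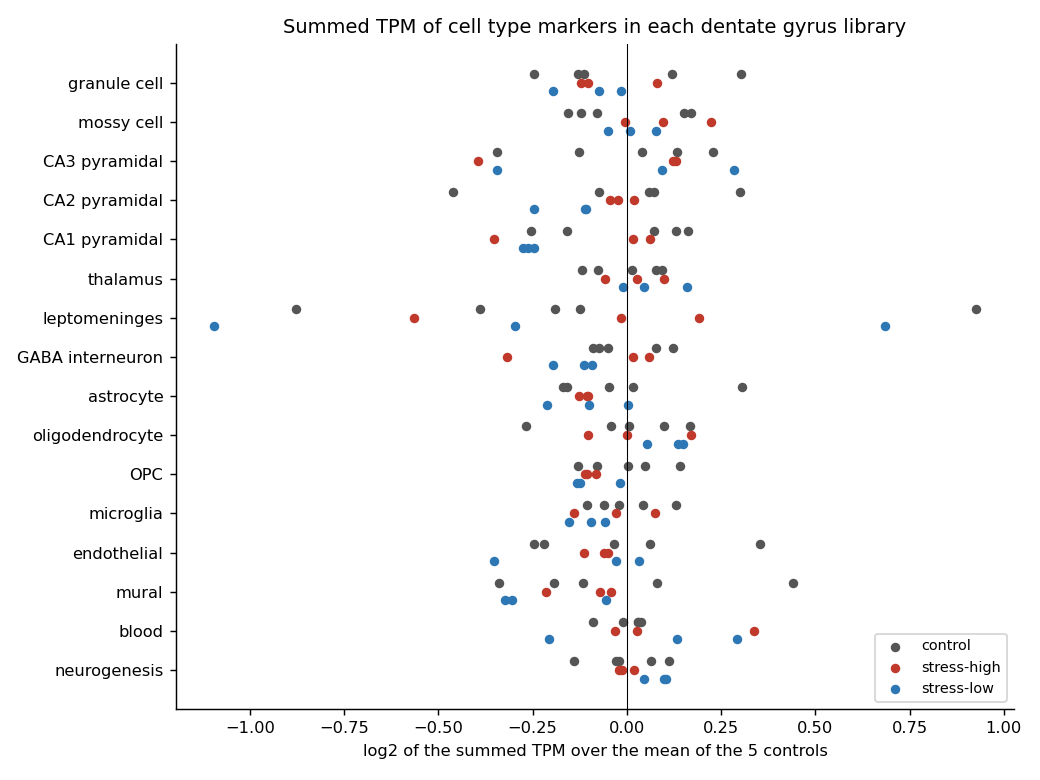
Summed TPM of each cell type marker list in each DG library, as the log2 ratio to the mean of the 5 controls, with 1 point per animal and colors for control, stress-high and stress-low animals. Control and stress-high animals overlap in every list shown, and the widest spread is that of the leptomeningeal markers. The choroid plexus list is left out because it summed to less than 1 TPM.

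The same animals were also punched in the BLA, which allowed the change in the DG to be set against that in another region within animals. Over the 7 animals with a usable library in both regions (controls 14, 17, 28 and 32 and stress-high 7, 19 and 20), 1 of 15239 genes had a region difference at an adjusted p under 0.05 (0.00656%, edgeR with the animal as a block). That gene was Pdyn, whose change fell in the DG relative to the BLA, by 1.86 on the log2 scale (SE 0.24, adjusted p = 0.0499). In the BLA, Pdyn was at 7.27, 4.85, 5.90 and 5.78 TPM in these controls and at 9.29, 8.26 and 11.66 TPM in the stress-high animals, each above each of these controls. Including BLA controls 27 and 35 (7.76 and 16.03 TPM; the treatment field of the latter names the stressor and its library name a control) the groups overlapped, and the log2 fold change within the BLA was 0.30 (SE 0.36). The call was narrow: the adjusted p was between 0.0246 and 0.0286 without animal 7, 14 or 32, but 0.110, 0.238, 0.158 and 0.186 without animal 17, 19, 20 or 28, and 1 in a fit of 6 region and group means without the animal block. The difference itself stayed between -2.09 and -1.55 in all of these. The call also rested on leaving out the BLA library of control animal 2, which the BLA fits omit and which held Pdyn at 52.05 TPM and Cartpt at 16.60 TPM, above every other BLA library. With animal 2 included the region difference of Pdyn was -1.23 (adjusted p = 1 in edgeR), and with animals 2 and 35 included it was -1.10 (adjusted p = 1).
Cartpt had a region difference of 1.74 (SE 0.43, unadjusted p = 0.00163, adjusted p = 1 in edgeR), with a log2 fold change of -0.29 (SE 0.52) in the BLA. DESeq2 called 3 genes in this comparison, Pdyn, Bhlhe22 and Bcl11a, the latter a zinc finger transcription factor. For Bhlhe22 (region difference 0.75, SE 0.12, adjusted p = 0.244 in edgeR and 0.000137 in DESeq2) and Bcl11a (-0.64, SE 0.10, adjusted p = 0.244 and 0.0167) the fold changes within the DG were small, 0.11 and -0.01, beside -0.59 (SE 0.33) and 0.52 (SE 0.23) in the BLA.

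**Figure D5:**
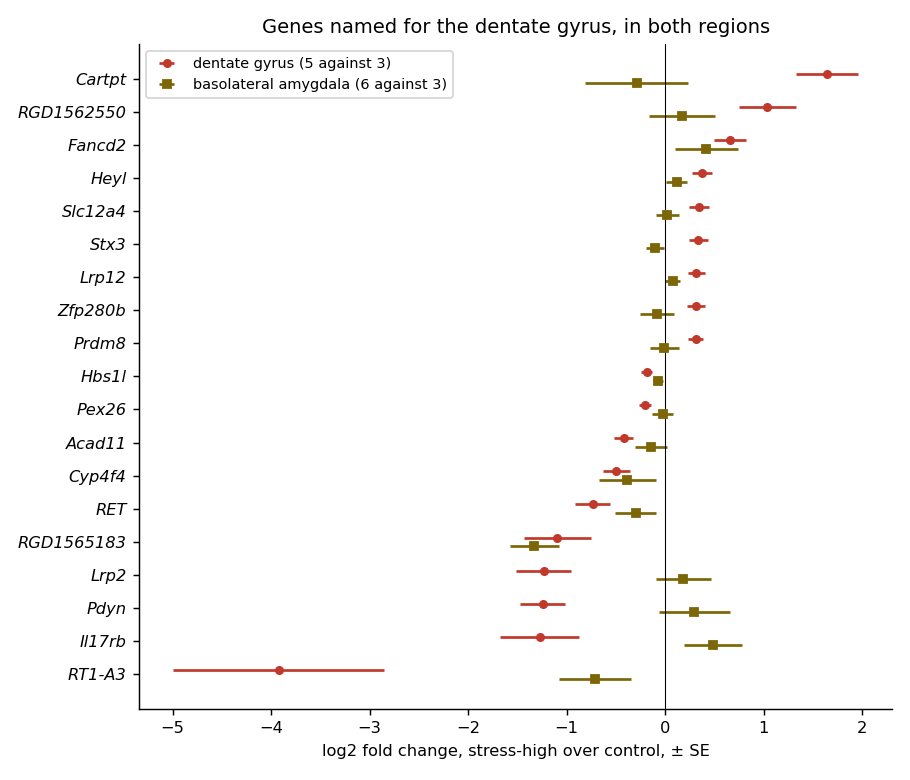
Log2 fold change ± SE of stress-high over control animals for genes named for the DG, in the DG (5 against 3 libraries, circles) and in the BLA (6 against 3 libraries, squares), each from the fit of its own region. Pdyn is at -1.24 in the DG and 0.30 in the BLA, Cartpt at 1.65 and -0.29, and RGD1565183 is negative in both.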

How the data were processed

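Bulk RNA of the left dorsal DG was sequenced with 1 library per animal. The authors aligned reads to Rn5, took gene models from Ensembl build 75 and used RSEM for quantification. The labels name STAR 2.6.0a and RSEM 1.3.1. The deposited expected counts are RSEM's estimated reads of each of 26312 gene identifiers in each library, need not be whole and were not normalized. The deposited TPM values are relative abundances within a library. Reads that fit several genes are divided between them, and 5.91% to 6.39% of the values of the 8 libraries were not whole.

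After rounding, the expected counts went into edgeR 4.0.16 in R 4.3.3 (TMM scaling, a minimum count of 10 in filterByExpr, quasi-likelihood F-test, 3 DG group means, Benjamini-Hochberg adjustment over 14080 genes, threshold 0.05). The study used EBSeq, which was not run here. Groups were taken from the library names and treatments in the labels. TPM of single genes was compared by exact permutation over all 56 assignments of 5 and 3 labels, with 0.0179 as the smallest possible p. Region differences were fitted over 7 animals with the animal as a block. No set test was run, and lists are described by counts and medians. On simulated counts of 13957 genes, the DG fit recovered 68.7% of changes of 0.5, 89.4% of changes of 1 and 100% of changes of 2 on the log2 scale. In that simulation each gene's spread followed the trend over all genes, and spread particular to single genes was left out. Recovery there is therefore no measure of power in these data, where Cartpt, at 1.65, was not called by the edgeR test. Replicate libraries of a group all differed by more than sampling noise.

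Genes named were those the study lists for this comparison, the 10 higher and 10 lower named genes with the smallest unadjusted p, genes called by DESeq2 1.42.0 or in the 2-group or all-library fit, and up to 4 members of each list with the smallest p beside members that carry its role. Of the genes this rule names, 1 is not reported here. The genes called for the region difference were added after their values were seen. Members and lists were chosen with earlier results of these data known. The BLA library of animal 2 was left out of the BLA and region fits, and fits with it were added after seeing the data. The paper excluded 1 amygdala sample that did not cluster with the others, and its text gives no animal number. The BLA library of animal 35 has a treatment field that disagrees with its library name and was taken as control after the name. Alternatives were DESeq2, RLE size factors, no filter, a robust fit, only the 2 groups, all mapped DG libraries, a replicate block, animal number above 20 as covariate, controls of either score name, limma 3.58.1 on log2(TPM + 1) or log2(TPM + 0.1) (genes averaging 0.5 TPM or more, or all genes), gene models of the same name summed, and leaving out each library.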

Additional observations from a re-analysis of the deposited data

Results flagged for a closer look

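Of 57 control values screened, 5 had a control library far from the other 4, where chance gives about 1 in 20. These were RT1-A3 in animal 32 (0.12 TPM), Zmynd15 in animal 2 (0.39 TPM), Pex26 in animal 14 (11.8 TPM), RGD1565183 in animal 32 (27.65 TPM) and the summed leptomeningeal markers in animal 17 (29.07 TPM). Without the library concerned, the log2 fold change was -4.24 for RT1-A3, 2.56 for Zmynd15, -0.23 for Pex26 and -0.98 for RGD1565183. The change of Pdyn from control to stress-high animals differed between the DG and the BLA by -1.86 on the log2 scale (edgeR adjusted p = 0.0499), a difference that lost its call when any of 4 animals was left out or control animal 2 was included.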

How the results depend on the processing

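Of 852 recomputed log2 fold changes of 39 named genes, 842 kept their direction and their side of the threshold. This count is no independent support, since most of these genes were chosen by their p in the same libraries. In the main test no adjusted p was under 0.960, so that most values could hardly change sides. Cartpt passed with DESeq2 (1.64, the 1 gene called, against 0 in the main test), and 9 values turned their sign, all in genes with small changes. Bcl11a turned to 0.0429 with the controls of a high-score name and to 0.0291 and 0.0943 without control animal 2 or stress-high animal 7 (-0.0919 to 0.0943 over all 8 libraries left out). Oprk1 turned to 0.0754 with the controls of a low-score name and to 0.1009 and 0.2677 without control animal 14 or stress-high animal 20 (-0.3133 to 0.2677 over all 8). Nr3c1 turned to 0.0149 with animal number above 20 as covariate, and Nr3c2 to 0.0007 with that covariate and 0.0527 with control animal 35. The cause was not tested.

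The number of genes at an adjusted p under 0.05 was 0 in every other alternative, leaving out each library included. At an unadjusted p under 0.05 it was 512 (234 higher, 278 lower) with animal number above 20 as covariate. With the controls of a low-score name, 257 genes were higher. With limma on log2(TPM + 1) of all genes it was 475 (262 lower), out of 18896 genes tested there against 14080 in the main test. The higher and lower genes were 111 and 202 with limma on log2(TPM + 0.1), against 151 and 158. Leaving out 1 library gave 274 to 542 genes (129 to 317 higher, 139 to 225 lower), most without control animal 14. Genes without overlap in TPM numbered 112 with control animal 35 (41 lower), and 116 were higher among all 18638 genes with a TPM above 0. They numbered 345 to 868 without 1 library (138 to 393 higher, 198 to 666 lower), where fewer libraries overlap less often by construction. A replicate block from the numbers in the titles gave 0 genes at an adjusted and 268 at an unadjusted p, and Cartpt and Pdyn at 1.53 and -1.10. Correlations between the deviations of animals of the same number were -0.16 to 0.11 over 6 pairs (mean -0.011). Over 9 pairs of different numbers the mean was 0.0066. The pairs share animals, and whether the numbers pair the animals was not tested.

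Region differences were called for 0 genes without the animal block, 3 with DESeq2 and 0 to 4 without 1 animal, and that of Pdyn without the block was -1.55. In fits chosen after seeing the data, 0 genes were called with control animal 2 included and 0 with control animals 2 and 35. The summed blood markers of the controls were at 723 TPM with animal 35, against 667 TPM. With 3 stress-high animals, scarce genes such as Oprk1 had wide intervals, and small changes in them were not detectable at this depth.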
